A study of Mus musculus with 12 samples.

Results

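The genes described here are 53 genes that carry out DNA replication or govern the passage from G1 into S phase, taken by name from the 19439 gene entries of one RNA sequencing series in mouse fibroblasts. The rule takes them by function, not by measured values: the subunits of the origin recognition complex, the factors that load and fire the replicative helicase, the DNA polymerases and primase, the sliding clamp and its loader, the enzymes that join Okazaki fragments, the factors that copy chromatin behind the fork, and the E2F transcription factors with the E-type cyclins. Each of the 53 was found once in the table, and each passed the filter on low values used for testing. The series compared 2 lines of 3T3 cells, mouse embryonic fibroblasts made immortal by serial passage. One line carried p53 in its wild-type form (WT) and the second was labelled p53 -/- (p53-null). Each was kept for 18 h in DMEM, a standard culture medium, either with 2 mM L-glutamine (complete) or with none (glutamine-free). Both lines were grown beforehand in DMEM with 25 mM glucose and 2 mM glutamine, and each of the 4 groups had 3 libraries. Each genotype is 1 line, so a difference between genotypes is a difference between these 2 lines, and nothing in the labels says whether separate cultures stood behind the 3 libraries of each. The p-values therefore speak of library-to-library spread, possibly only technical.

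Replication begins when the origin recognition complex (ORC), with CDC6 and CDT1, loads the ring of MCM2 to MCM7 onto DNA in G1. At the start of S phase, kinases and firing factors turn the loaded ring into a working helicase with CDC45 and GINS. Polymerases α, δ and ε copy the strands, and the clamp PCNA holds δ and ε to the template. E2F transcription factors, released from pocket proteins by cyclin-dependent kinases, drive many of these genes late in G1. p53 can oppose that step through the kinase inhibitor p21, encoded by Cdkn1a, and glutamine supplies nitrogen for the nucleotides that replication consumes.

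Levels are RPKM, a read density scaled by transcript length and by how many reads each library mapped, so levels of different genes can be set side by side per length. Changes are log2 differences of log2(RPKM + 1) with a standard error (SE) from limma, and a gene was called at an adjusted p under 0.05 over all 11461 genes tested. RPKM values summed to 284426 to 319735 per library, and the steps between low values give a rough depth of 37.7 to 46.9 M reads. Trp53, which encodes p53, was 58.5 ± 0.585 and 112 ± 2.22 RPKM in WT cells with and without glutamine and 28.8 ± 0.873 and 34.6 ± 0.614 RPKM in p53-null cells (mean ± SD, n = 3, as for all means below), so its transcript was lower but still read in the p53-null line, whose allele is not given in the sources used here. Cdkn1a was 2.62 ± 0.328 and 16.1 ± 0.261 RPKM in WT cells and 0.973 ± 0.242 and 1.84 ± 0.164 RPKM in p53-null cells. The summed level of 8 fibroblast markers was 3618 to 3638 RPKM in complete and 806 to 815 RPKM in glutamine-free WT libraries, and 2478 to 2517 and 1426 to 1451 RPKM in the p53-null libraries. Of the 7 fibroblast markers tested, 7 fell in WT cells on glutamine withdrawal (100%, against 44.0% of all genes tested). In p53-null cells 6 fell (85.7% against 32.0%) and 1 rose (14.3% against 50.0%). The eighth, Thy1, was at most 0.339 RPKM on average in any group. The sum of 4 epithelial markers was 0.0369 to 0.115 RPKM in WT libraries and 59.9 to 77.0 RPKM in p53-null libraries, nearly all of it Krt18, with Epcam at 0.00719 RPKM or less on average. The other lists also differed between the lines. Among blood markers Cd68 went from 1.24 to 0.823 RPKM in WT and from 7.06 to 2.16 RPKM in p53-null cells on withdrawal, with Ptprc at or near 0. In complete medium the muscle marker Des was 0.0405 RPKM in WT and 1.33 RPKM in p53-null cells, with Myog at or near 0. There the endothelial marker Kdr was 0.0106 RPKM in WT and 1.25 RPKM in the other line. Pecam1, of the same list, was 0.0298 and 0.0585 RPKM, and Cdh5 was at or near 0. The sum of 3 neural markers was 39.1 to 39.8 RPKM in complete and 21.3 to 21.7 RPKM in glutamine-free WT libraries and 1.32 to 1.97 RPKM in p53-null libraries. In WT cells Stmn2 went from 23.5 to 2.66 RPKM, Tubb3 from 13.5 to 16.5 RPKM and Map2 from 2.601 to 2.35 RPKM on withdrawal. The part of these marker differences in the results below was not tested.

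Glutamine withdrawal moved most of the replication genes upward in both lines, though with marked exceptions inside single complexes. In WT cells 36 of 53 rose (67.9%, against 46.0% of all genes tested), 13 fell (24.5% against 44.0%) and 4 did not pass. The median change of the 53 was 0.285, beside 0.011 over all genes tested. At least 2-fold on this scale, 8 members rose (15.1% against 9.75%) and 2 fell (3.77% against 12.9%). Quantile normalization left 5 of the members up at least 2-fold and a WT median of 0.173. In p53-null cells 41 rose (77.4% against 50.0%), 7 fell (13.2% against 32.0%) and 5 did not pass, with a median of 0.271 beside 0.083 over all genes tested. The p53-null split depends on scaling: it became 33 up and 15 down under quantile normalization and 33 up and 12 down with the libraries centred on their medians, where the median change was 0.202 and 0.166. RNA came from whole cultures, so fewer cells in a cycle phase and less RNA per cell cannot be told apart. The members varied little among libraries of a group, with a median coefficient of variation of 1.66% and a highest one of 7.26%, for Gins1 in glutamine-free WT cells. With so small a spread a call says little about size, and the sizes are given throughout.

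**Figure D1:**
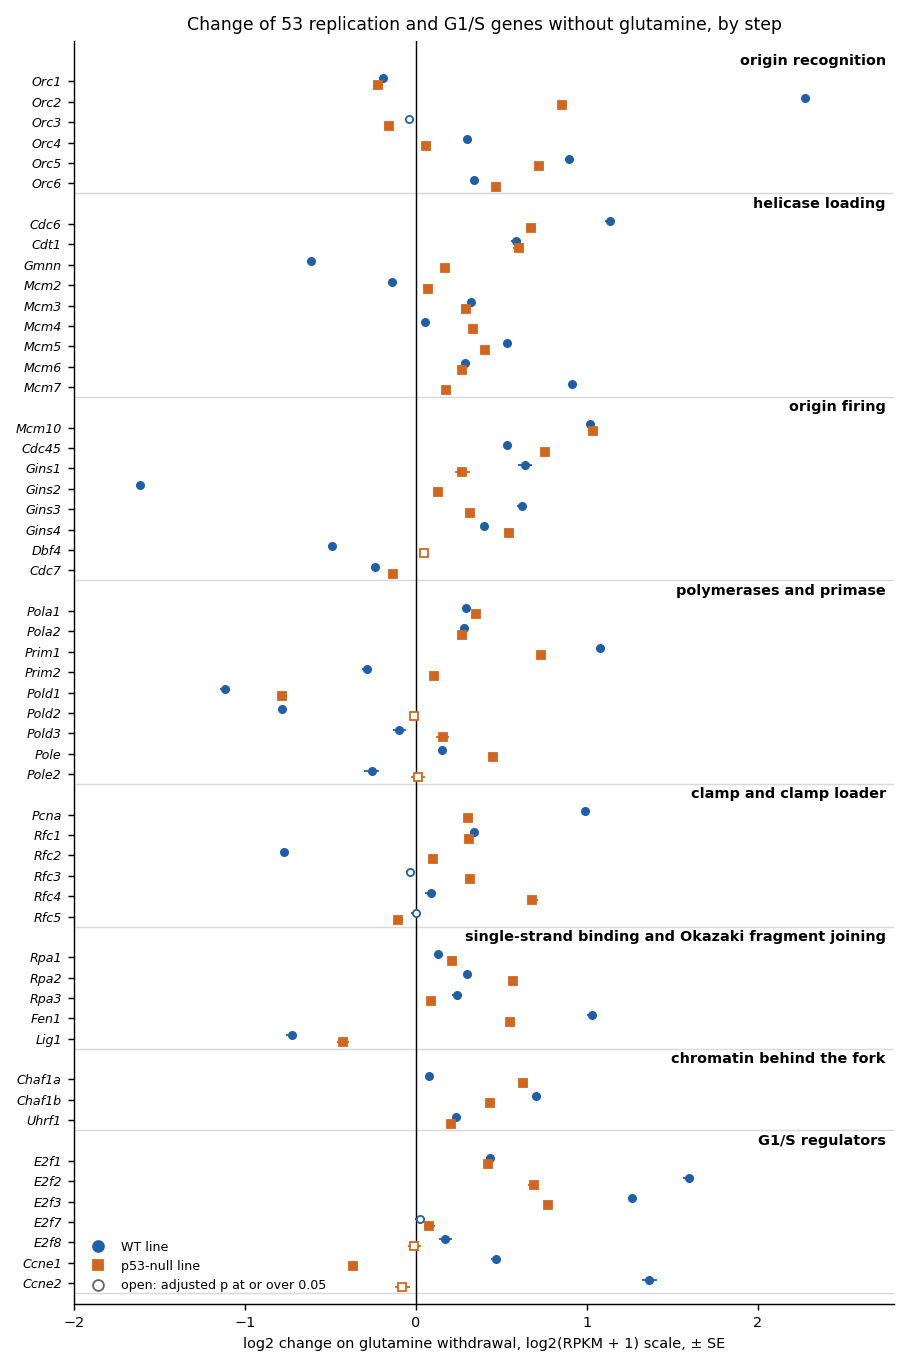
Log2 change of each of the 53 genes on glutamine withdrawal (x axis, log2(RPKM + 1) scale, ± SE from limma) in the WT line (circles) and the p53-null line (squares), grouped by step, with open symbols where the adjusted p was 0.05 or more. Orc2 stands at 2.27 and Gins2 at -1.62 in WT cells, while p53-null changes run from -0.78 for Pold1 to 1.03 for Mcm10.

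Promoters of the members were searched for the E2F motif, whatever their response to glutamine withdrawal. The letters searched were TTTCCCGC, TTTCGCGC, TTTGCCGC and TTTGGCGC on both strands, in the 250 bases before the most upstream RefSeq start of each gene (GRCm38.p6). Of 44 members with a promoter in the table, 11 held at least 1 such motif (25%), against 1.92% of 27025 promoters of all genes and 3.77% of those of 8849 tested genes. Entries for Gmnn, Mcm4, Gins1, Gins2, Gins4, Prim2, Pole, Rfc2 and Ccne2 were missing. The 11 were Orc1, Orc3, Cdc6, Mcm5, Mcm6, Mcm7, Gins3, Pola1, Rfc3, E2f3 and E2f7, of which 7 rose in both lines (63.6%), beside 29 of all 44 with an entry (65.9%). Of the 8 genes with the widest difference between the lines in their step, 4 had an entry (Orc2, Pold2, Fen1 and Chaf1a), and none of these 4 held the motif. Printed here, as a choice made after the values were seen, are the 4 stretches that hold the motif, belong to a gene that rose in both lines and touch no annotated exon, each read 5′ to 3′ on the gene's strand with the motif letters in capitals. The motifs of Mcm5 and 2 of the 3 of Mcm6 overlap, 1 on each strand, and form a longer run. The Mcm5 stretch lies at chr8:75109321-75109402 (plus strand), that of Mcm6 at chr1:128359710-128359850 (minus), that of Pola1 at chrX:93632251-93632328 (minus) and that of E2f3 at chr13:29986064-29986109 (minus).
Mcm5: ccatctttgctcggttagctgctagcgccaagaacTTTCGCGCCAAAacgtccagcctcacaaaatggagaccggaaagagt
Mcm6: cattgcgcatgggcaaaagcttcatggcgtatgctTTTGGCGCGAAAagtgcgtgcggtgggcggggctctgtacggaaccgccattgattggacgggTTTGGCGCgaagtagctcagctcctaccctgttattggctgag
Pola1: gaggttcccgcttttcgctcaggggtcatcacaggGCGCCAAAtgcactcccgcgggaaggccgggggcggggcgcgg
E2f3: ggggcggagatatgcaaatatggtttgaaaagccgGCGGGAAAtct
A match of letters is a description of these windows and shows no binding.

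Among the 6 ORC subunits, Orc2 changed by far more than its partners in WT cells. In p53-null cells its rise of 0.86 stood near that of Orc5, 0.72. Orc2 (chromosome 1, 58462771 to 58505109, minus strand), a core subunit of the complex, was 9.20, 9.32 and 9.05 RPKM in complete and 47.8, 49.1 and 48.0 RPKM in glutamine-free WT libraries. In p53-null libraries it was 16.8, 17.3 and 17.04 RPKM with and 31.8, 31.5 and 31.7 RPKM without glutamine. No library of one medium overlapped those of the other, and the order of the lines turned: p53-null cells held more Orc2 with glutamine and less without. The change was 2.27 ± 0.018 (adjusted p = 6.2e-18) in WT and 0.86 ± 0.018 (adjusted p = 3.5e-13) in p53-null cells, a difference of responses of 1.42 ± 0.025 (adjusted p = 4.3e-14). The libraries do not mark strand, and 29.8% of the exon bases of Orc2 lie under exons of Nif3l1 on the other strand. Nif3l1 itself went from 5.40 ± 0.174 to 22.5 ± 0.770 RPKM in WT cells and from 9.23 ± 0.315 to 19.7 ± 0.435 RPKM in p53-null cells, so how the reads divide between them cannot be told from these values.

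The other ORC subunits moved less. Orc1, the subunit whose level is regulated through the cycle, fell in both lines: it was 9.16, 9.47 and 8.87 RPKM in complete and 7.84, 7.90 and 7.94 RPKM in glutamine-free WT libraries, and 5.83, 5.96 and 5.77 RPKM with and 4.98, 4.73 and 4.91 RPKM without glutamine in p53-null libraries. The glutamine-free libraries lay below the complete ones in each line, and the changes, -0.19 ± 0.027 (adjusted p = 1.9e-05) and -0.22 ± 0.027 (adjusted p = 6.4e-06), differed by 0.03 ± 0.039 (adjusted p = 0.47), a difference that passed as 0.11 under quantile normalization and 0.13 under median centring. Orc5 rose from 14.5 ± 0.233 to 27.8 ± 0.221 RPKM in WT and from 12.6 ± 0.396 to 21.4 ± 0.532 RPKM in p53-null cells. Orc6, the subunit with the highest mean in each group, rose from 39.2 ± 1.18 to 49.9 ± 0.763 RPKM and from 29.2 ± 0.238 to 40.8 ± 0.809 RPKM. Orc4 rose by 0.30 ± 0.025 in WT and 0.06 ± 0.025 in p53-null cells, the second of which turned into a fall under quantile normalization (-0.07) and did not pass under median centring (-0.04) or without any 1 of p53-null complete libraries 2 and 3 or of the 3 glutamine-free ones (0.049 to 0.066). Orc3 was 13.5 ± 0.127 and 13.1 ± 0.210 RPKM in WT cells (adjusted p = 0.086, a fall that passed with no filter, at one RPKM sum and under quantile normalization, at -0.039, -0.055 and -0.085) and fell by 0.16 ± 0.020 in p53-null cells.

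The helicase loaders rose in both lines. CDC6 is the ATPase that joins ORC to bring in the MCM ring, and Cdc6 was 5.01, 4.75 and 5.01 RPKM in complete and 12.3, 11.7 and 11.9 RPKM in glutamine-free WT libraries. In p53-null libraries it was 11.9, 11.9 and 11.9 RPKM with and 19.6, 18.9 and 20.3 RPKM without glutamine. The starved WT libraries therefore reached about the level that p53-null cells held in complete medium, and the rise was larger in WT (1.13 ± 0.029, adjusted p = 3e-13) than in p53-null cells (0.67 ± 0.029, adjusted p = 2e-10, difference 0.46 ± 0.041, adjusted p = 2.5e-07). Cdt1, which delivers the ring, rose from 45.7 ± 1.48 to 69.2 ± 2.82 RPKM in WT and from 36.05 ± 0.761 to 55.1 ± 1.13 RPKM in p53-null cells, and the difference of its responses was -0.01 ± 0.043 (adjusted p = 0.78).

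Geminin, the inhibitor that binds CDT1 in S and G2 phase to prevent a further round of loading, went the other way in WT cells. Gmnn was 48.3, 49.0 and 47.8 RPKM in complete and 31.2, 30.3 and 32.1 RPKM in glutamine-free WT libraries, and 29.5, 28.6 and 28.8 RPKM with and 32.0, 33.4 and 32.6 RPKM without glutamine in p53-null libraries. The complete WT libraries stood above all others. The change in WT was -0.62 ± 0.023 (adjusted p = 1.4e-11), the change in p53-null cells was 0.17 ± 0.023 (adjusted p = 1.6e-05), which did not pass under quantile normalization, and the difference was -0.78 ± 0.032 (adjusted p = 9.8e-11). The ratio of mean Cdt1 to mean Gmnn RPKM was 0.946 and 2.22 in WT cells with and without glutamine, and 1.24 and 1.69 in p53-null cells.

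The 6 genes of the MCM ring itself were among the most abundant members and kept closer levels than the subunits of ORC or GINS. Their means spanned 1.8-fold in complete and 2.28-fold in glutamine-free WT cells, and 2.62-fold and 2.22-fold in p53-null cells. Mcm7 rose from 62.8 ± 0.335 to 119 ± 1.805 RPKM in WT cells and from 118 ± 1.19 to 134 ± 0.325 RPKM in p53-null cells (difference of responses 0.74 ± 0.019, adjusted p = 1.1e-12). Mcm5, Mcm3 and Mcm6 rose by 0.53 ± 0.016, 0.32 ± 0.019 and 0.29 ± 0.014 in WT cells and by 0.41 ± 0.016, 0.29 ± 0.019 and 0.27 ± 0.014 in p53-null cells. Mcm2 fell in WT by 0.14 ± 0.017, from 59.8 ± 1.02 to 54.0 ± 1.07 RPKM, and was 69.5 ± 0.459 and 73.0 ± 0.847 RPKM in p53-null cells (adjusted p = 0.0025, not passed after median centring). Mcm4 rose by 0.05 ± 0.017 in WT, a change that turned into a fall of 0.05 under quantile normalization, and by 0.33 ± 0.017 in p53-null cells.

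**Figure D2:**
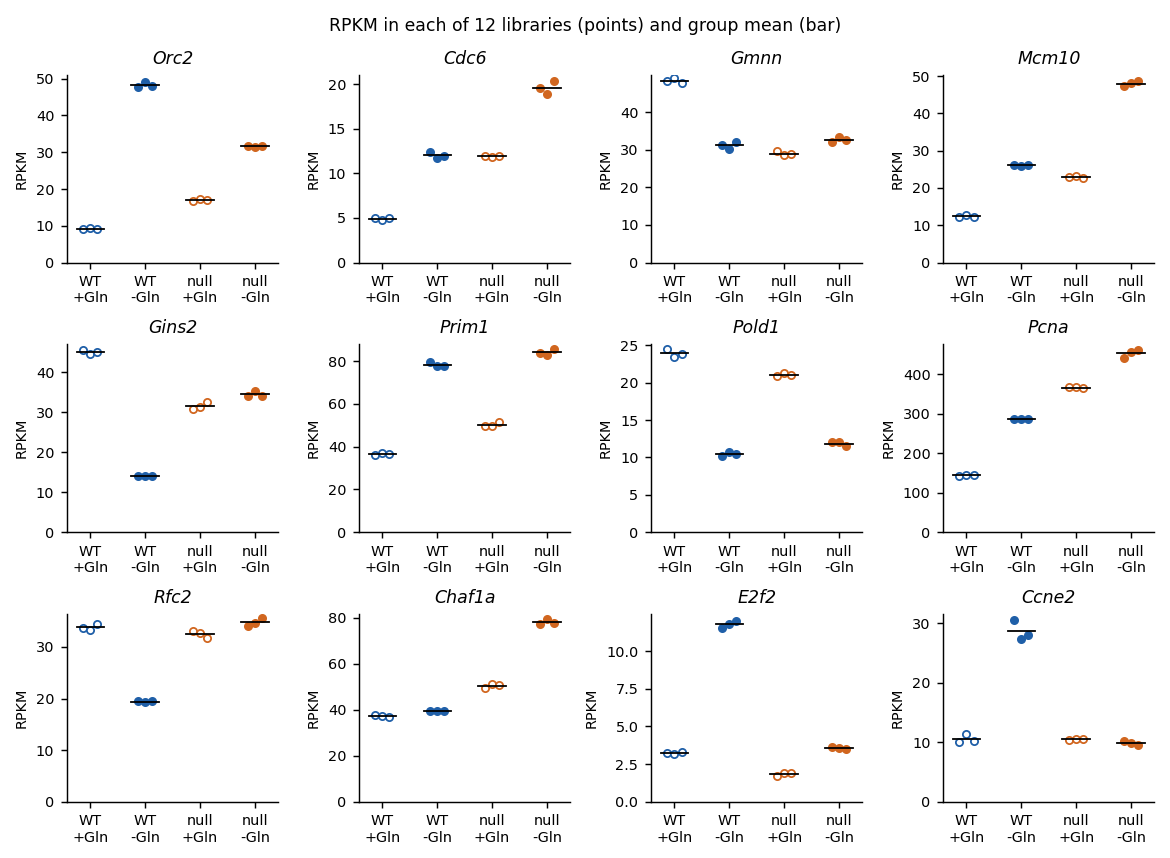
RPKM of 12 members (y axis, from 0) in each library (points, open for complete and filled for glutamine-free medium) with the group mean as a bar, for the WT line (blue) and the p53-null line (orange). Gins2 and Rfc2 drop in the starved WT libraries alone, while Mcm10 rises in both lines.

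The genes that turn loaded rings into moving forks included one with a like rise in both lines, Mcm10, and the one with the widest difference between them, Gins2. MCM10, which is needed to set the helicase in motion, had 12.2, 12.7 and 12.2 RPKM in complete and 26.3, 25.8 and 26.1 RPKM in glutamine-free WT libraries. The p53-null libraries had 22.9, 23.2 and 22.7 RPKM with and 47.3, 48.1 and 48.6 RPKM without glutamine. Mcm10 rose by nearly the same amount in each line, 1.02 ± 0.019 (adjusted p = 1.3e-14) and 1.03 ± 0.019 (adjusted p = 1.3e-13), and the difference of the responses was -0.01 ± 0.027 (adjusted p = 0.63), which became 0.09 with an adjusted p of 0.0061 under median centring. Cdc45, a helicase subunit, rose from 23.6 ± 0.557 to 34.6 ± 0.209 RPKM in WT and from 17.4 ± 0.258 to 30.1 ± 0.570 RPKM in p53-null cells, more in the latter (difference -0.22 ± 0.029, adjusted p = 9.4e-06).

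GINS is a ring-shaped complex of 4 subunits in the active helicase, and in WT cells its genes parted. Gins2 (chromosome 8, 120578633 to 120589304, minus strand) was 45.5, 44.6 and 45.2 RPKM in complete and 14.1, 14.0 and 14.1 RPKM in glutamine-free WT libraries, and 30.7, 31.2 and 32.6 RPKM with and 34.1, 35.4 and 34.0 RPKM without glutamine in p53-null libraries. It was the most abundant of the 4 in complete WT cells, and the starved WT libraries lay below all other libraries. Its change of -1.62 ± 0.022 (adjusted p = 7.6e-16) in WT stood beside 0.13 ± 0.022 (adjusted p = 0.00016) in p53-null cells, the latter lost under quantile normalization and median centring, and the difference of -1.74 ± 0.032 (adjusted p = 5.2e-14) was the widest of all 53. Gins1, Gins3 and Gins4 rose in WT by 0.64 ± 0.042, 0.62 ± 0.028 and 0.40 ± 0.017 and in p53-null cells by 0.27 ± 0.042, 0.32 ± 0.028 and 0.54 ± 0.017. In the annotation 67.3% of the exon bases of Gins2 lie under Gse1 on the other strand, which went from 6.24 ± 0.208 to 4.38 ± 0.102 RPKM in WT and from 6.97 ± 0.0777 to 7.49 ± 0.126 RPKM in p53-null cells. How the reads divide between Gins2 and Gse1 cannot be told from these values.

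The kinase that fires origins, CDC7 with its activator DBF4, did not follow the rise. Cdc7 was 12.3, 11.97 and 12.5 RPKM in complete and 10.3, 9.96 and 10.3 RPKM in glutamine-free WT libraries, and 17.5, 17.1 and 16.9 RPKM with and 15.3, 15.5 and 15.8 RPKM without glutamine in p53-null libraries. It fell in both lines without overlap, by 0.24 ± 0.022 and 0.14 ± 0.022. Dbf4 fell in WT from 35.98 ± 0.756 to 25.3 ± 0.782 RPKM and was 47.0 ± 0.910 and 48.6 ± 0.786 RPKM in p53-null cells (adjusted p = 0.087), with a difference of responses of -0.54 ± 0.034 (adjusted p = 6.6e-09). The p53-null change of Dbf4 passed as a fall under quantile normalization (-0.061) and median centring (-0.059) and as a rise at one RPKM sum (0.072) and in the fit of those 2 groups alone (0.047).

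Of 9 polymerase and primase genes 4 rose (44.4%) and 5 fell (55.6%) in WT cells, beside 46.0% and 44.0% of all genes tested. In p53-null cells 6 rose (66.7%) and 1 fell (11.1%), beside 50.0% and 32.0%. PRIM1 is the catalytic subunit of primase, which lays down the RNA primer. Prim1 was 36.1, 36.8 and 36.6 RPKM in complete and 79.5, 77.8 and 77.6 RPKM in glutamine-free WT libraries, and 49.5, 49.7 and 51.4 RPKM with and 83.8, 83.1 and 85.6 RPKM without glutamine in p53-null libraries. It rose without overlap in both lines, by 1.08 ± 0.018 (adjusted p = 4.2e-15) and 0.73 ± 0.018 (adjusted p = 1.3e-12). Its partner Prim2, the large primase subunit, fell in WT from 31.2 ± 0.465 to 25.4 ± 0.188 RPKM and was 19.1 ± 0.485 and 20.5 ± 0.624 RPKM in p53-null cells (adjusted p = 0.0013, turned into a fall of 0.06 under quantile normalization). Pola1 and Pola2 encode subunits of polymerase α, which extends the primer. They rose by 0.29 ± 0.019 and 0.28 ± 0.020 in WT and by 0.35 ± 0.019 and 0.27 ± 0.020 in p53-null cells.

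Polymerase δ, which copies the lagging strand, was the polymerase whose 3 genes among the members all fell in WT cells. Pold1, its catalytic subunit, was 24.4, 23.5 and 23.8 RPKM in complete and 10.2, 10.8 and 10.48 RPKM in glutamine-free WT libraries, and 20.9, 21.3 and 21.0 RPKM with and 12.03, 12 and 11.5 RPKM without glutamine in p53-null libraries. It fell in both lines, by 1.12 ± 0.025 in WT and 0.78 ± 0.025 in p53-null cells, and the fall in p53-null cells was the largest of any member there. Pold2, an accessory subunit, was 56.8, 57.2 and 57.6 RPKM and 31.8, 33.2 and 33.4 RPKM in WT libraries with and without glutamine, and 42.5, 42.6 and 41.9 RPKM with and 41.6, 41.8 and 42.4 RPKM without glutamine in p53-null libraries. Pold2 thus fell in WT (-0.78 ± 0.018, adjusted p = 1.1e-13) with overlapping p53-null libraries (-0.01 ± 0.018, adjusted p = 0.51), a difference of -0.77 ± 0.026 (adjusted p = 1.3e-11). The p53-null change of Pold2 passed as a fall under quantile normalization (-0.14) and median centring (-0.12). Pold3 fell in WT by 0.10 ± 0.037 (adjusted p = 0.024), a call lost under quantile normalization and without library 1 of complete (-0.07) or glutamine-free (-0.08) WT cells, and its p53-null rise of 0.16 ± 0.037 did not pass under quantile normalization or median centring. The fourth subunit gene, Pold4, outside the 53, went from 31.2 ± 1.32 to 7.64 ± 0.547 RPKM in WT and from 5.19 ± 0.334 to 6.75 ± 0.349 RPKM in p53-null cells. Pole, the catalytic subunit of the leading-strand polymerase ε, rose by 0.15 ± 0.021 in WT and 0.45 ± 0.021 in p53-null cells, while its partner Pole2 fell by 0.26 ± 0.043 in WT and was 11.4 ± 0.576 and 11.5 ± 0.501 RPKM in p53-null cells (adjusted p = 0.82, a fall of 0.11 under quantile normalization and 0.10 under median centring).

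PCNA, the ring that tethers polymerases to DNA, was the most abundant member in each group and is also a known p53 target. Pcna was 142, 146 and 145 RPKM in complete and 287, 285 and 287 RPKM in glutamine-free WT libraries, and 367, 366 and 364 RPKM with and 442, 455 and 459.9 RPKM without glutamine in p53-null libraries. All p53-null libraries exceeded all WT libraries in either medium. It rose by 0.99 ± 0.016 (adjusted p = 2.6e-15) in WT and 0.31 ± 0.016 (adjusted p = 9.9e-10) in p53-null cells, with a difference of 0.68 ± 0.022 (adjusted p = 9.1e-12).

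The 5 genes of RFC, the complex that opens the clamp and loads it, did not move together in WT cells. There Rfc2 fell, Rfc1 rose and the others changed little. Rfc2 was 33.6, 33.4 and 34.4 RPKM in complete and 19.5, 19.3 and 19.4 RPKM in glutamine-free WT libraries, and 33.1, 32.6 and 31.7 RPKM with and 34.0, 34.8 and 35.7 RPKM without glutamine in p53-null libraries. The starved WT libraries lay below all others, with a fall of 0.77 ± 0.021 in WT cells. In p53-null cells the change was 0.10 ± 0.021 (adjusted p = 0.00085). That small rise turned into a fall under quantile normalization (-0.057) and did not pass under median centring (-0.008). The difference of the responses was -0.87 ± 0.030 (adjusted p = 1.6e-11).

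Rfc4 was 24.6, 23.8 and 23.8 RPKM in complete and 25.2, 25.1 and 26.5 RPKM in glutamine-free WT libraries, and 17.5, 17.3 and 17.8 RPKM with and 28.7, 27.3 and 30.2 RPKM without glutamine in p53-null libraries. Its rise was large in p53-null cells (0.68 ± 0.032, adjusted p = 4.5e-10) and small in WT (0.09 ± 0.032, adjusted p = 0.023), and the WT call was lost without complete library 2 or 3 or glutamine-free library 3, with adjusted p of 0.063, 0.067 and 0.1, and turned in direction under quantile normalization. Rfc5 was 26.7, 26.8 and 25.7 RPKM and 25.8, 26.7 and 26.6 RPKM in WT libraries with and without glutamine, and 31.2, 31.4 and 32.4 RPKM with and 28.4, 30.2 and 29.6 RPKM without glutamine in p53-null libraries. It fell by 0.10 ± 0.025 in p53-null cells, and the WT libraries overlapped (adjusted p = 0.95), though quantile normalization gave a WT fall of 0.13. Eif4a2, on the other strand over 12.7% of the Rfc4 exon bases, rose by 0.55 in WT and fell by 0.32 in p53-null cells, and Wsb2, over 10.7% of those of Rfc5, fell by 0.50 and 0.54. Rfc1, the large subunit, rose by 0.34 ± 0.015 in WT and 0.31 ± 0.015 in p53-null cells, and Rfc3 rose by 0.32 ± 0.023 in p53-null cells with overlapping WT libraries (-0.04 ± 0.023, adjusted p = 0.14), which passed as a fall without complete library 3 (-0.07), under quantile normalization (-0.15) and at one RPKM sum (-0.05).

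**Figure D3:**
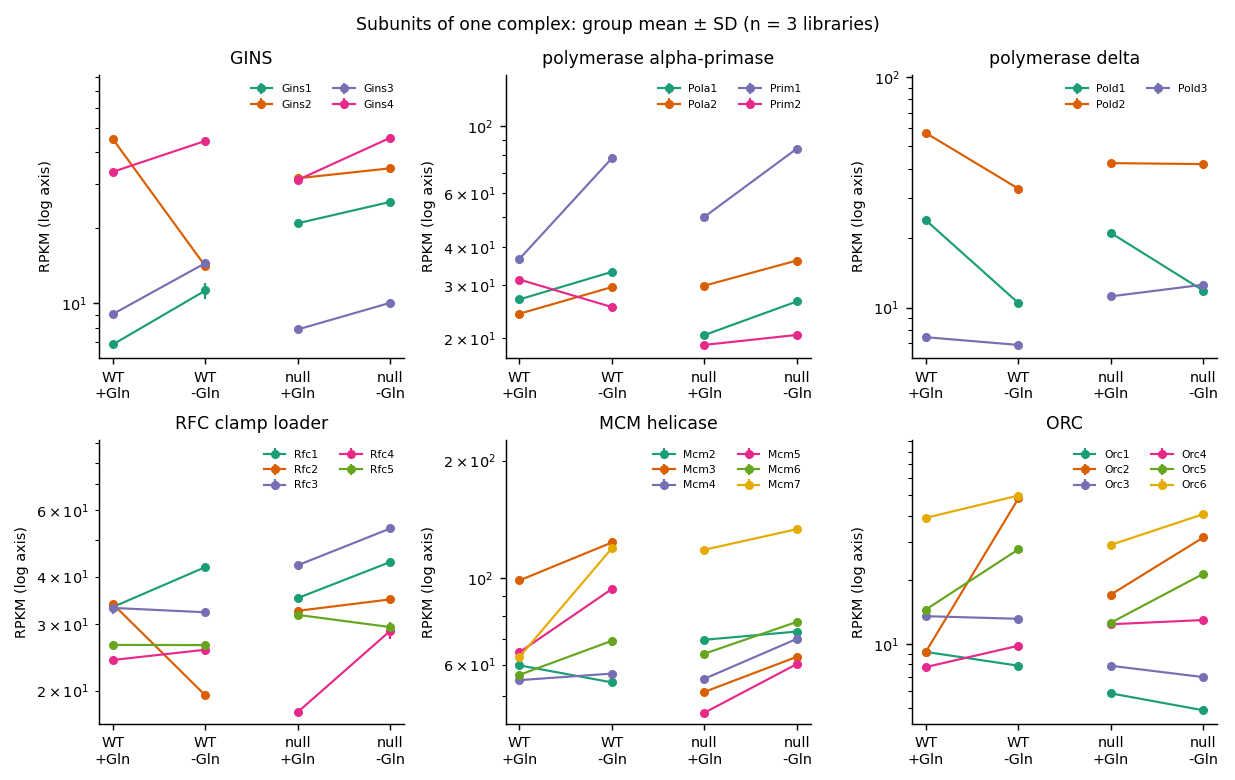
Mean RPKM ± SD (log y axis, n = 3 libraries) of the subunits of 6 complexes in the 4 groups, with lines joining the media within a line. Gins2 falls from 45.1 to 14.0 RPKM and Rfc2 from 33.8 to 19.4 RPKM in WT cells while most of their partners rise or hold, and Orc2 rises from 9.19 to 48.3 RPKM.

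RPA coats the single strands exposed at the fork, and its 3 genes rose in both lines by 0.09 to 0.57, where quantile normalization took away the WT call of Rpa1 (0.02), and the p53-null call of Rpa3 was lost there (-0.06), under median centring (-0.02) and without complete library 3 (0.07). Rpa2 was 32.9, 32.6 and 32.3 RPKM in complete and 39.8, 40.0 and 41.1 RPKM in glutamine-free WT libraries, and 18.6, 18.9 and 19.9 RPKM with and 28.3, 28.7 and 29.6 RPKM without glutamine in p53-null libraries, where the rise was larger (difference -0.27 ± 0.034, adjusted p = 7.9e-06). The 2 enzymes that finish Okazaki fragments moved apart. FEN1 trims the flap left by the primer, and Fen1 was 22.2, 21.4 and 21.1 RPKM in complete and 43.4, 45.2 and 46.5 RPKM in glutamine-free WT libraries, and 31.2, 32.2 and 32.6 RPKM with and 47.2, 46.9 and 48.0 RPKM without glutamine in p53-null libraries. It rose by 1.03 ± 0.026 (adjusted p = 3e-13) and 0.55 ± 0.026 (adjusted p = 5.3e-10). Of its exon bases 84.2% lie under genes on the other strand, among them Tmem258, which went from 68.4 ± 2.17 to 36 ± 1.06 RPKM in WT cells and from 38.9 ± 0.684 to 35.9 ± 1.17 RPKM in p53-null cells. How the reads divide between Fen1 and these genes cannot be told from these values.

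LIG1 seals the trimmed ends. Lig1 was 34.5, 34.1 and 33.5 RPKM in complete and 18.9, 21.2 and 20.4 RPKM in glutamine-free WT libraries, and 29.2, 30.3 and 30.7 RPKM with and 21.6, 22.5 and 22.3 RPKM without glutamine in p53-null libraries. It fell in both lines without overlap, by 0.73 ± 0.034 and 0.43 ± 0.034. The ratio of mean Fen1 to mean Lig1 RPKM was thus 0.634 in complete and 2.23 in glutamine-free WT cells, and 1.06 and 2.14 in p53-null cells. This ratio carries the limit that the overlap sets on Fen1.

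Behind the fork, CAF-1 deposits new histones and UHRF1 brings the maintenance DNA methyltransferase to newly copied sites. Chaf1b, the middle CAF-1 subunit, was 16.7, 16.7 and 16.6 RPKM in complete and 27.9, 28.3 and 27.0 RPKM in glutamine-free WT libraries, and 32.8, 34.6 and 33.1 RPKM with and 44.7, 46.1 and 45.6 RPKM without glutamine in p53-null libraries. Chaf1a, the large subunit, was 37.7, 37.3 and 37.0 RPKM and 39.2, 39.4 and 39.4 RPKM in WT libraries with and without glutamine, and 49.2, 51.0 and 50.8 RPKM with and 77.2, 79.6 and 77.6 RPKM without glutamine in p53-null libraries. The 2 subunits had their larger rise in different lines: Chaf1b rose more in WT (difference 0.27 ± 0.032, adjusted p = 3.9e-06) and Chaf1a more in p53-null cells (difference -0.55 ± 0.024, adjusted p = 1.6e-10), and the WT rise of Chaf1a, 0.07 ± 0.017, was lost and turned in direction under quantile normalization. Exons of Ubxn6 on the other strand cover 52.5% of the Chaf1a exon bases, and Ubxn6 went from 20.7 ± 0.583 to 18.8 ± 0.848 RPKM in WT and from 20.3 ± 0.359 to 15.7 ± 0.293 RPKM in p53-null cells. How the reads divide between Chaf1a and Ubxn6 cannot be told from these values. Uhrf1 rose by 0.23 ± 0.017 in WT and 0.21 ± 0.017 in p53-null cells.

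Upstream of these steps, the activator E2Fs rose in both lines. E2f2 was 3.25, 3.14 and 3.29 RPKM in complete and 11.5, 11.8 and 11.97 RPKM in glutamine-free WT libraries, and 1.70, 1.92 and 1.89 RPKM with and 3.65, 3.58 and 3.47 RPKM without glutamine in p53-null libraries. Every WT library held more than the p53-null libraries of the same medium, and the response was larger in WT (1.595 ± 0.034, adjusted p = 4.3e-14) than in p53-null cells (0.69 ± 0.034, adjusted p = 6.7e-10, difference 0.91 ± 0.048, adjusted p = 1.1e-09). E2f3 was 7.39, 7.53 and 7.42 RPKM in complete and 19.2, 18.7 and 20.0 RPKM in glutamine-free WT libraries, and 7.51, 7.71 and 7.71 RPKM with and 13.6, 13.8 and 13.9 RPKM without glutamine in p53-null libraries. It started at overlapping levels in the 2 lines and rose by 1.26 ± 0.025 (adjusted p = 2e-14) and 0.77 ± 0.025 (adjusted p = 1.3e-11). E2f1 rose by 0.43 ± 0.023 and 0.42 ± 0.023, from 16.0 ± 0.237 to 21.9 ± 0.0451 RPKM in WT and from 22.6 ± 0.703 to 30.7 ± 0.662 RPKM in p53-null cells, a difference of 0.01 ± 0.033 (adjusted p = 0.86). The atypical repressors moved little: E2f7 was 8.14 to 8.64 RPKM on average in the 4 groups, with a change of 0.02 ± 0.030 in WT cells (adjusted p = 0.47), and E2f8 rose by 0.17 ± 0.037 in WT cells and was 9.91 and 9.83 RPKM in p53-null cells (adjusted p = 0.81, a fall of 0.11 under quantile normalization and 0.12 under median centring). In p53-null cells E2f7 rose by 0.08 ± 0.030, a call lost under quantile normalization, median centring and without p53-null complete library 1 or 2 or glutamine-free library 1 or 3 (0.064 to 0.078).

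The E-type cyclins, which activate CDK2 at the entry to S phase, separated the lines. Ccne2 was 10.02, 11.3 and 10.3 RPKM in complete and 30.6, 27.4 and 28.0 RPKM in glutamine-free WT libraries, and 10.4, 10.53 and 10.49 RPKM with and 10.1, 9.92 and 9.51 RPKM without glutamine in p53-null libraries. The starved WT libraries stood above all others, with a rise of 1.36 ± 0.044 (adjusted p = 3.1e-12), and p53-null cells changed by -0.08 ± 0.044 (adjusted p = 0.11, called as a fall under quantile normalization, median centring and the fit of those 2 groups alone). The difference of the responses was 1.44 ± 0.062 (adjusted p = 1.5e-10). Ints8 lies on the other strand over 17.4% of the Ccne2 exon bases and was 16.8 ± 0.348 and 14.2 ± 0.824 RPKM in WT cells.

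Ccne1 was 6.75, 6.84 and 6.65 RPKM in complete and 9.51, 9.80 and 9.83 RPKM in glutamine-free WT libraries, and 16.6, 18.2 and 17.1 RPKM with and 13.1, 12.9 and 13.4 RPKM without glutamine in p53-null libraries. It was higher in the p53-null line in both media and moved in opposite directions, up by 0.47 ± 0.030 in WT and down by 0.37 ± 0.030 in p53-null cells (difference 0.84 ± 0.042, adjusted p = 6.9e-10). It was the one member called up in WT and down in p53-null cells in the fit used throughout. Ccne2 and E2f8 also went this way under quantile normalization and median centring. So did Orc4 under quantile normalization and Ccne2 in the fits of only the groups compared.

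Across the 53 genes, 33 rose in both lines (62.3%, against 34.4% of the 11459 tested genes with a name of their own) and 4 fell in both (Orc1, Cdc7, Pold1 and Lig1, 7.55% against 23.0%). In opposite directions, 6 fell in WT while called up in p53-null cells (Gmnn, Mcm2, Gins2, Prim2, Pold3 and Rfc2, 11.3% against 11.6%), and Ccne1 went the other way (1.89% against 5.92%). All 7 had a called difference, 13.2% of the members against 17.5% of these genes. The difference of the 2 responses, WT minus p53-null, was called as higher for 20 members (37.7%, against 38.4% of all genes tested) and as lower for 22 (41.5% against 46.4%), shares near the background. Median centring made these 28 and 18. The median difference of the members was 0.006, and -0.062 over all genes tested. The changes in the 2 lines, which share no libraries, correlated across the 53 genes with r = 0.64 and rho = 0.66, a description only, since the genes share the same 12 libraries and are no independent replicates. In absolute size 35 of 53 changed more in WT, with a median of 0.40 against 0.31. Neither these sizes nor the correlations were computed over all genes tested, so they are not shown to be particular to the members.

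**Figure D4:**
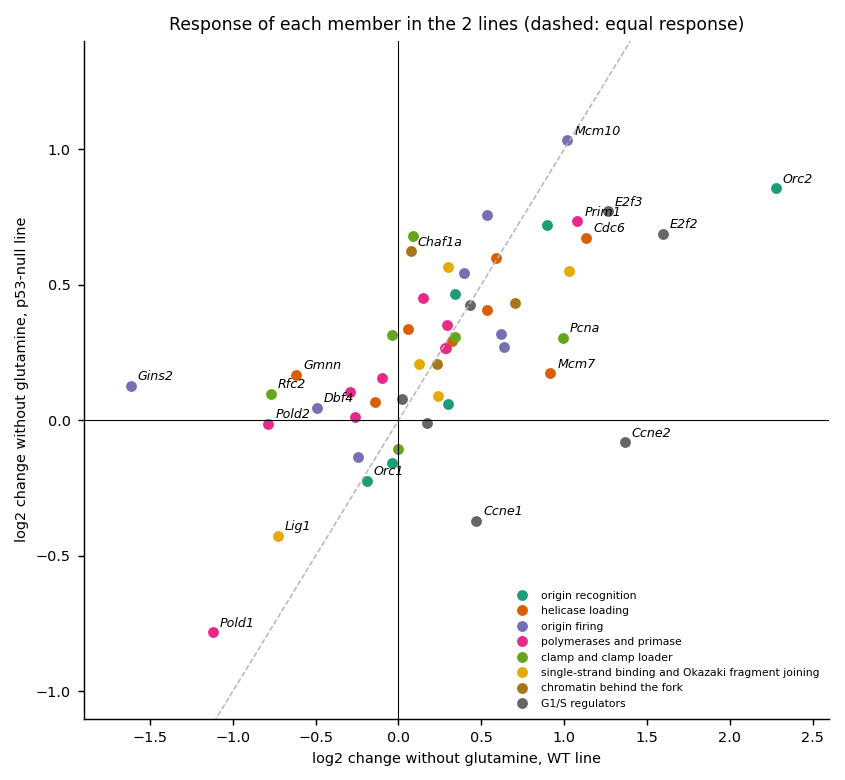
Log2 change without glutamine in the WT line (x axis) against that in the p53-null line (y axis) for the 53 members, coloured by step, with a dashed line where both would be equal. Mcm10 lies on the line, Ccne2 and Orc2 far to its right and Gins2 far to its left.

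Between the lines, the members did not differ in one direction. In complete medium 27 were higher in p53-null cells (50.9%, against 48.4% of all genes tested) and 22 were lower (41.5% against 42.5%). The widest differences were of Gins1, at 6.86 ± 0.209 RPKM in WT and 20.9 ± 0.510 RPKM in p53-null cells (log2 difference 1.48 ± 0.042), of Pcna (1.34 ± 0.016) and Ccne1 (1.24 ± 0.030), and, on the lower side, of Mcm3, at 98.7 ± 0.436 against 51.1 ± 1.15 RPKM (-0.94 ± 0.019), and Rpa2 (-0.74 ± 0.024). In glutamine-free medium 34 were higher (64.2% against 51.4%) and 17 lower (32.1% against 40.0%), a split that became 23 and 23 with median centring. There the widest were Gins2 (1.24 ± 0.022) and Gins1 (1.11 ± 0.042) on the higher side and E2f2 (-1.48 ± 0.034) and Ccne2 (-1.45 ± 0.044) on the lower. These comparisons share libraries with those of the media.

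The genes around the members were followed through lists written by function. Their counts are to be read beside the shares of all genes tested, 46.0% up and 44.0% down in WT and 50.0% up and 32.0% down in p53-null cells. Of 11 regulators of origin firing 9 rose (81.8%) and 1 fell in WT and 10 rose (90.9%) and 1 fell in p53-null cells. In WT the largest change was of Recql4, a helicase-related firing factor, from 8.38 ± 0.256 to 34.4 ± 0.947 RPKM, and in p53-null cells of Dtl, a targeting subunit of the ligase that degrades CDT1, from 26.4 ± 0.378 to 45.2 ± 0.468 RPKM. Ccna2, the S and G2 phase cyclin, fell in both. Of 13 genes of fork protection and the checkpoint 9 rose and 4 fell in WT, and 9 rose and 3 fell in p53-null cells (69.2% up in each). Rad9a, a subunit of the checkpoint clamp, went from 15.7 ± 0.318 to 57.7 ± 1.23 RPKM and from 19.2 ± 0.613 to 39.9 ± 0.713 RPKM. Of 12 genes that supply deoxynucleotides 9 rose and 2 fell in WT (75% and 16.7%) and 6 rose and 5 fell in p53-null cells (50% and 41.7%).

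Other replisome subunits and E2F partners were mixed. Of 13 other replisome genes 8 rose and 4 fell in WT (61.5% and 30.8%) and 7 rose and 5 fell in p53-null cells (53.8% and 38.5%). Ctc1, of the complex that assists polymerase α at telomeres, fell from 17.5 ± 0.193 to 8.93 ± 0.232 RPKM in WT and from 20.7 ± 0.564 to 13.2 ± 0.143 RPKM in p53-null cells. Of 14 further E2F, pocket protein and DREAM complex genes 8 rose and 4 fell in WT (57.1% and 28.6%) and 9 rose and 3 fell in p53-null cells (64.3% and 21.4%). Rbl2, the pocket protein p130, fell from 16.4 ± 0.199 to 6.25 ± 0.158 RPKM in WT and from 8.81 ± 0.260 to 7.60 ± 0.128 RPKM in p53-null cells. Mybl2, the partner that the complex takes up in cycling cells, rose from 11.9 ± 0.188 to 21.4 ± 0.220 RPKM in WT and from 24.5 ± 0.276 to 41.2 ± 0.742 RPKM in p53-null cells. Of 8 translesion genes 2 rose and 5 fell in WT (25% and 62.5%) and 4 rose and 3 fell in p53-null cells (50% and 37.5%). Rev3l, the catalytic subunit of polymerase ζ, fell in WT from 11.8 ± 0.119 to 6 ± 0.145 RPKM and was 5.93 ± 0.0421 and 5.69 ± 0.129 RPKM in p53-null cells (adjusted p = 0.078). Primpol, a repriming enzyme, was 9.64 ± 0.0554 and 10.03 ± 0.499 RPKM in WT (adjusted p = 0.15) and rose from 4.59 ± 0.132 to 9.19 ± 0.196 RPKM in p53-null cells. The difference of responses was -0.82 ± 0.034 for Rev3l and -0.82 ± 0.046 for Primpol.

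Mitosis genes, active later in the cycle, stood on the other side of the scale. In WT cells 30 of 30 fell, with a median of -1.49, where the replication members had a median of 0.285. In p53-null cells 22 fell (73.3%) and 5 rose (16.7%), with a median of -0.33 beside 0.271. The largest change in both lines was of Ccnb2, the B-type cyclin gene, from 66.8 ± 1.46 to 6.94 ± 0.273 RPKM in WT and from 26.5 ± 0.861 to 12.2 ± 0.539 RPKM in p53-null cells. These counts and medians are descriptions of lists chosen with earlier results of the data known, and the difference between the lists was not tested.

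**Figure D5:**
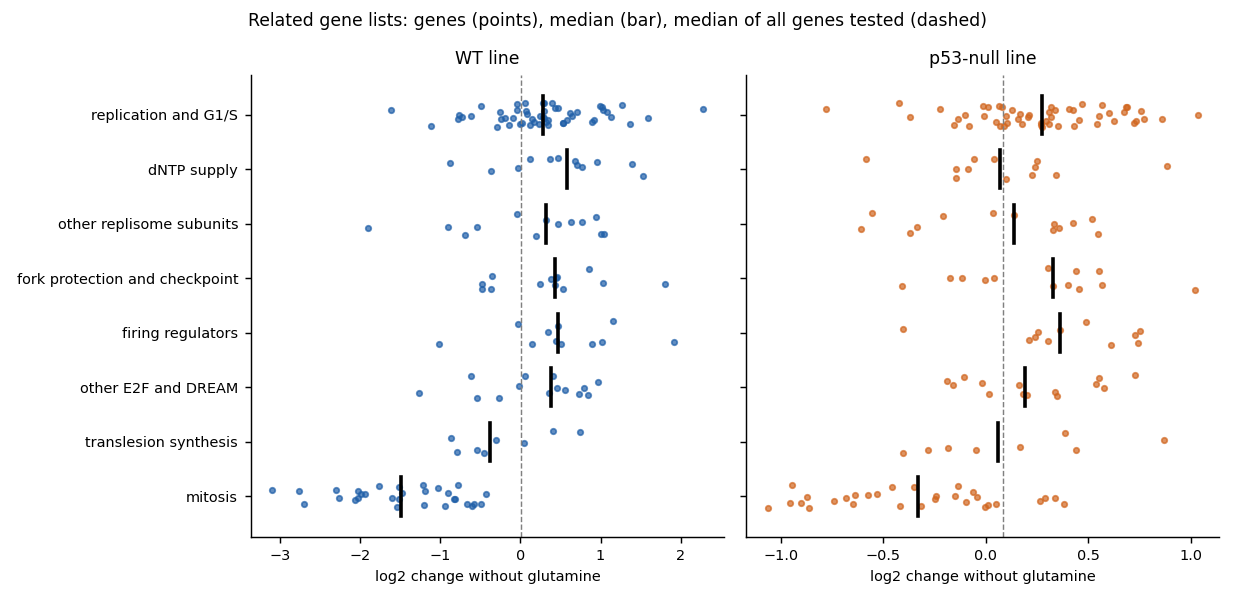
Log2 change without glutamine (x axis) of each gene in the 53 members and in 7 related lists, in the WT line (left) and the p53-null line (right, on a narrower scale), with list medians as bars and the median of all genes tested as a dashed line. The members' medians are 0.285 and 0.271, and those of the mitosis list are -1.49 and -0.33.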

How the data were processed

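RNA was sequenced in 12 libraries made with an Illumina TruSeq V2 kit, which does not mark strand, from 0.5 µg of total RNA, per the labels' protocols. The submitters' processing notes name CASAVA 1.8, HISAT2 2.0.4, Partek and mm10, without their roles. The values deposited by the authors are RPKM in one table, and neither label nor header names the counting tool or annotation. Between 53.6% and 57.5% of low values were whole multiples of 1 read, so reads were not recovered and no count test was run.

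Groups came from the sample titles and library columns were matched to them by name. The 11461 genes that reached 1 RPKM in 3 or more libraries were fitted on log2(RPKM + 1) with limma 3.58.1 (R 4.3.3), with a mean-variance trend and all 4 groups in 1 fit. P-values were two-sided and Benjamini-Hochberg adjusted over all genes tested, with 0.05 as threshold and a fold of 2 (log2 of 1) where stated. The log2(RPKM + 1) scale understates changes of low genes. On simulated data for the WT comparison (11461 genes), 86.6%, 98.5% and 97.0% of genes changed 1.2-fold, 1.5-fold and 2-fold were recovered. There 67, 67 and 66 genes were raised and all others left unchanged, with 4 false calls. Far more genes were called in the real comparison, so these shares describe a setting unlike it.

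The members, the related lists and the tests were chosen with earlier results of these data known. Values in every library are given, in each of 8 steps, for the called genes with the largest rise and fall in each medium comparison and for the widest difference of the 2 responses. In each related list the called gene with the largest change is named, except 1 that is not reported here, and Trp53 and Cdkn1a check the labels. The rule for printing promoters, a motif in a gene with the widest difference, gave none, so those printed were chosen after their values were seen. Exon overlap was computed from GENCODE M21. Libraries of a group correlated at r = 0.998 to 0.999. Same-numbered libraries of different groups did not deviate together (r = -0.106 to 0.088 over 18 pairs), so no pairing was used. Alternatives were another pseudocount (0.1), other filters (none, 2 RPKM), quantile normalization, 1 RPKM sum for every library, median centring, no trend, fits of only the groups compared, a replicate block and each library left out in turn.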

Additional observations from a re-analysis of the deposited data

Results flagged for a closer look

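The response to glutamine withdrawal went in opposite directions in the 2 lines for 7 of the 53 genes, with the difference itself, WT minus p53-null, past the threshold by limma's interaction term over all genes tested. That is 13.2% of the members, against 17.5% of the 11459 tested genes with a name of their own. The difference was -1.74 for Gins2, -0.87 for Rfc2, -0.78 for Gmnn, -0.39 for Prim2, -0.25 for Pold3 and -0.21 for Mcm2, all of which fell in WT cells. It was 0.84 for Ccne1, which rose in WT and fell in p53-null cells. The p53-null rises of Gins2, Rfc2, Prim2 and Pold3 were lost or turned under both quantile normalization and median centring, that of Gmnn was lost under the former, and that of Mcm2 under the latter. The difference of Pold3 was lost under quantile normalization (-0.09, adjusted p = 0.13). Other members gained opposite calls in some alternatives. Ccne2, E2f8 and Orc4 were then up in WT and down in p53-null cells, and Dbf4, Rfc3 and Mcm4 the other way.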

How the results depend on the processing

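Of 2392 alternatives computed for single genes named in full, 2353 kept direction and call, 17 lost and 9 gained the call, and 13 changed sign. Of 354 for counts and medians of the members, 334 were labelled the same, 14 moved and 6 changed sign. Counts labelled the same could still shift. With median centring, members higher in p53-null than in WT cells without glutamine went from 34 to 23, and those lower from 17 to 23. Under quantile normalization, members that rose in WT cells went from 36 to 32. Quantile normalization gave 5 WT genes higher at least 2-fold, a WT median of 0.173, a p53-null median of 0.202 with 15 lower, a line difference of 0.137 in complete medium and a median difference of responses of -0.019. Among the genes named in full, its reversals were Chaf1a (-0.036) and Rfc4 (-0.031) in WT and Gins2 (-0.022) and Rfc2 (-0.057) in p53-null cells. Rfc2 between the lines in complete medium (0.006) and the difference of responses of Cdc7 (0.022) also turned. Of the other members, Mcm4 in WT (-0.046) and Orc4 (-0.066) and Prim2 (-0.060) in p53-null cells passed in the other direction. Rescaling to 1 RPKM sum gave medians of 0.296 in p53-null cells, 0.179 and 0.301 between the lines in complete and glutamine-free medium and -0.036 for the difference of responses, and turned Rfc2 in complete medium (0.046). Median centring gave medians of 0.166 in p53-null cells, with 12 lower, 0.040 and 0.023 between the lines and 0.106 for the difference of responses. Among the genes named in full it turned Rfc2 in p53-null cells (-0.008) and the difference of responses of Mcm10 (0.086). Between the lines without glutamine it turned Fen1 (-0.064), Gmnn (-0.071), Lig1 (-0.006) and Prim1 (-0.033). Of the other members, Gins4 (-0.095) and Rfc1 (-0.092) passed there in the other direction. The cause was not tested. The median of all genes between the lines in glutamine-free medium was 0.105 and moved to 0.233 at 1 RPKM sum and to -0.031 with median centring.

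Leaving out each library in turn gave p53-null medians of 0.269 to 0.291 and medians of the difference of responses of -0.014 to 0.016. With the replicate block, the number in the titles, 36 rose and 13 fell in WT and 40 rose and 7 fell in p53-null cells, where Orc4 lost its call. In 14 of 36 comparisons a library correlated best with its own number.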
